A study of Ambystoma mexicanum with 5 samples.

Results

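The genes described here are 10 members of the ATF4 and CHOP branch of the stress response, measured in axolotl kidney after gentamicin injury. Members were taken by name: every gene model of the deposited count table whose cleaned symbol equals ATF4, DDIT3, TRIB3, ASNS, CHAC1, SESN2, PPP1R15A, DDIT4, HSPA5 or HERPUD1. Of the 10 symbols 9 were matched, by 10 of the table's 100758 gene models. PPP1R15A matched none and was not analysed here. TRIB3 matched 2 models, of which 1 had no read in any library, so 9 models carried counts and all 9 were tested.

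The study sequenced total kidney RNA of the axolotl (Ambystoma mexicanum), a salamander, from 2 animals injured with gentamicin and 3 untreated controls, with 1 library for each animal. Gentamicin is an aminoglycoside antibiotic that damages the proximal tubule, the nephron segment that takes it up. The labels give neither strain, age, sex nor dose, and the time since injury is not reported here. Gentamicin libraries are numbered 1 and 3 and control libraries 1, 2 and 3. Each p-value is set against how much the 5 animals vary.

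In vertebrate cells, unfolded protein in the endoplasmic reticulum (ER), amino acid shortage and other stresses activate kinases that phosphorylate the translation factor eIF2. General translation then slows while the mRNA of the transcription factor ATF4 is translated more, so much of the control of ATF4 lies outside its mRNA level. ATF4 activates genes of amino acid supply and redox balance and the transcription factor CHOP, encoded by DDIT3, which under lasting stress promotes cell death. HSPA5 (BiP, the main ER chaperone) reports mainly on the neighbouring ATF6 and XBP1 branches of the unfolded protein response. HERPUD1 is a membrane protein of ER-associated degradation.

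CHOP mRNA rose 7.45-fold after gentamicin and ATF4 mRNA rose 1.36-fold. The other members that were called, SESN2, ASNS and HERPUD1, fell, by 2.44-, 1.59- and 1.38-fold. Of 17 alternative analyses, ATF4 lost its call in 7, HERPUD1 in 9 and ASNS in 3, while the calls of DDIT3 and SESN2 held in all. TRIB3, CHAC1, DDIT4 and HSPA5 did not pass the test. That makes 2 of 9 tested members higher and 3 lower, where a call is a Benjamini-Hochberg adjusted p below 0.05 from edgeR (quasi-likelihood test). Over all 22006 genes tested, 13.3% were called higher and 13.4% lower. With counts this small, the members' shares are not a result apart from the genes themselves. The median log2 fold change was 0.06 over the members, beside 0.01 over all genes tested.

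Libraries held 15163723 and 16404879 counts for gentamicin and 13674201 to 15087765 for control, so that 3 counts came to 0.156 to 0.244 CPM (library-size-scaled counts, with TMM, the trimmed mean of M-values), the upper limit for a gene with no read. This limit covers counting error only. The scaling matters for small changes: scaled to total counts instead, the median of all genes moved up by 0.32 on the log2 scale and 76.6% of calls were higher, against 49.8% with TMM. Changes below are relative to the TMM scale. The kidney label was checked against 13 tubule symbols, PAX2, PAX8 and CDH16 among them, all of which had reads. Of their 17 tested models, 1 was higher and 11 lower after gentamicin. Podocyte markers had 2 higher and 2 lower of 10, and erythroid markers 2 higher and 1 lower of 6 (all genes, 13.3% and 13.4%).

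Proximal and macrophage markers moved most among the cell type lists. Proximal tubule markers fell in 39 of 41 tested models, with a summed level of 1592 to 1624 CPM after gentamicin and 15617 to 19408 CPM in controls. None of the 28 symbols was at 0. Macrophage markers rose in 18 of 21, with a summed level of 2033 to 2485 CPM after gentamicin and 254.5 to 339.7 CPM in controls, with CD163 at 0 in every library. In bulk kidney RNA, fewer cells of a type and less RNA per cell cannot be told apart. The part of these shifts in the changes of ATF4, DDIT3 and their targets was not tested.

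**Figure D1:**
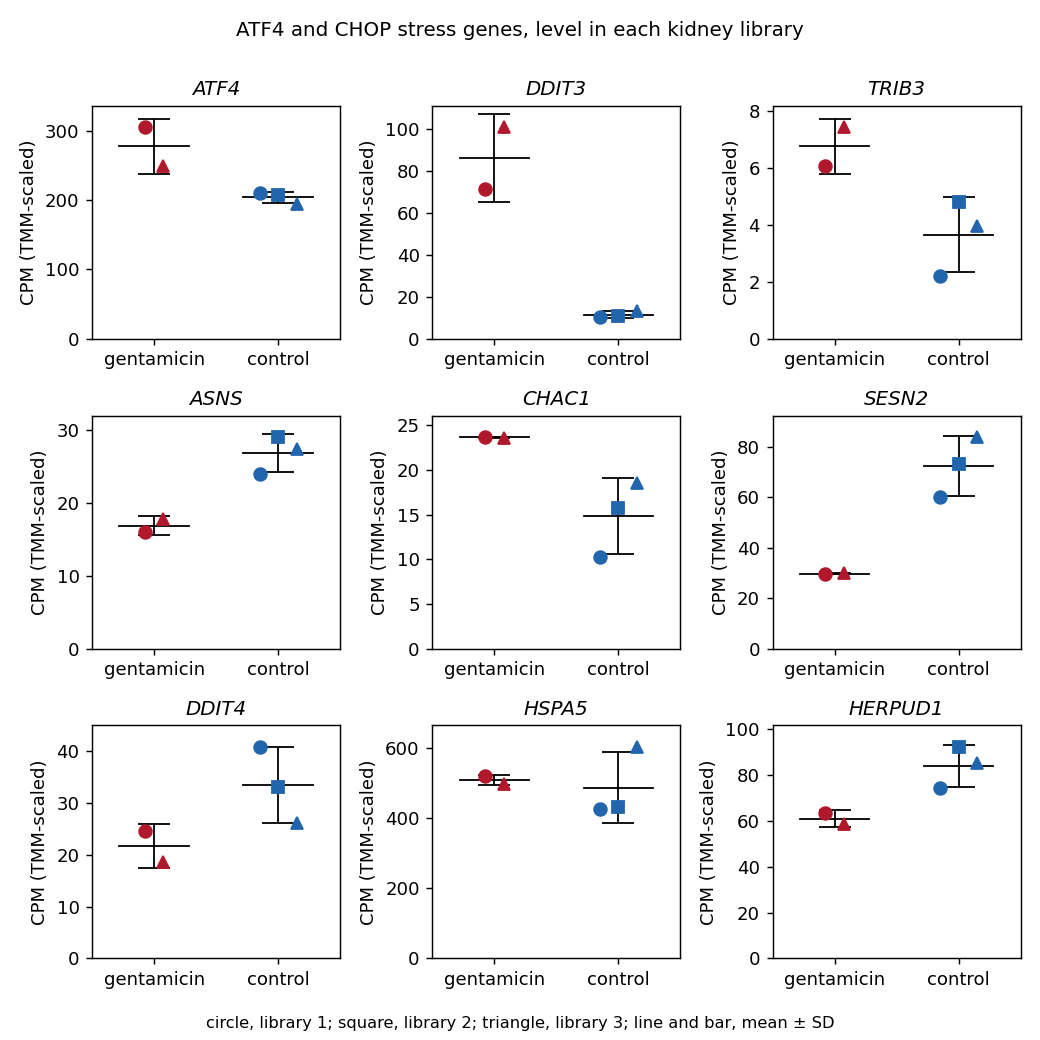
Level of each tested gene in each kidney library, in TMM-scaled CPM on linear axes that start at 0. Points are libraries, lines and bars are mean ± SD for gentamicin (left, 2 animals) and control (right, 3 animals), and in each panel but that of HSPA5 the groups do not overlap.

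DDIT3 encodes CHOP, a bZIP protein of the C/EBP family. Its model lies on the minus strand of chromosome 3q, 513870350 to 513925870. It had 71.4 and 101 CPM in gentamicin libraries, against 10.4, 10.8 and 13.4 CPM in controls. Both treated kidneys stood far above every control, and the treated kidneys differed from each other by 1.41-fold. The mean was 86.2 ± 20.9 CPM after gentamicin and 11.6 ± 1.64 CPM in controls (SD, n = 2 and 3). On the log2 scale the difference was 2.90 ± 0.18 (SE; 95% interval 2.47 to 3.32; edgeR adjusted p = 2e-05). DDIT3 ranked 387 by fold among the 2931 genes called higher. The call held in each of 17 alternatives, in which the log2 fold change ranged from 2.60 to 3.22.

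ATF4, the bZIP activator upstream of DDIT3, moved less. Its compact model lies on chromosome 3q, 316108417 to 316111914, on the minus strand. ATF4 had 306 and 249 CPM in gentamicin libraries, against 210, 207 and 195 CPM in controls. Controls were tight, with a coefficient of variation of 4.05%, and both treated kidneys lay above them, library 1 by more than library 3. The mean was 277 ± 39.9 CPM after gentamicin and 204 ± 8.25 CPM in controls (SD, n = 2 and 3). That is 0.44 ± 0.12 on the log2 scale (SE; 95% interval 0.16 to 0.73; edgeR adjusted p = 0.032). The call was lost without control 1 (adjusted p = 0.0512), control 2 (0.0704), control 3 (0.0909) or gentamicin 1 (0.233), where the log2 fold change was 0.29. It was also lost in limma on log2(FPKM + 1) (0.0505).

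TRIB3 encodes a pseudokinase that ATF4 and CHOP induce and that in turn dampens CHOP in mammals. The expressed model, AMEX60DD027159, is named TRIB3 by one match and TRIB2 by another in the deposited table and has no protein description, so its identity rests on position. In RefSeq's axolotl annotation (assembly UKY_AmexF1_1), 8 of the 16 protein-coding genes nearest TRIB3, among them RBCK1 and TBC1D20, have symbols that also occur within 6 Mb of this model, and of the 16 nearest TRIB2 none does. The model lies on chromosome 3p, 283680222 to 283951996, and overlaps a weak NRSN2 model on the same strand. It had 6.07 and 7.44 CPM in gentamicin libraries, against 2.20, 4.80 and 3.97 CPM in controls. Treated kidneys were above all controls, but the controls differed among themselves by 2.18-fold. Its fold change on the log2 scale was 0.88 ± 0.33 (SE; 95% interval 0.11 to 1.65; edgeR adjusted p = 0.0889). With total-count scaling the change passed (0.0247), as it did without a filter on low counts (0.0198). Without gentamicin 3 the log2 value was 0.73. In limma on log2(FPKM + 1) it was 0.40 (0.132), where the added 1 shrinks the value for a gene this low. TRIB3 averaged 1.09 FPKM after gentamicin and 0.585 FPKM in controls.

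CHAC1, a gamma-glutamylcyclotransferase that breaks down glutathione, is a target of ATF4 in mammals. It lies on chromosome 14q, 77596559 to 77604583, over an unnamed antisense model with no reads. CHAC1 had 23.7 and 23.6 CPM in gentamicin libraries, against 10.3, 15.8 and 18.6 CPM in controls. The treated kidneys were nearly equal and above every control, and the controls were spread over 1.81-fold. The log2 fold change was 0.67 ± 0.23 (SE; lower 95% bound 0.13; edgeR adjusted p = 0.0692). It passed without control 3 (adjusted p = 0.0312, log2 fold change 0.84), with total-count scaling (0.0147), in limma-voom (0.0434) and without a filter (0.00135). Without control 1 the log2 value was 0.45 (0.0692), and without gentamicin 3 the adjusted p was 0.259.

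SESN2 encodes sestrin 2, a leucine sensor that restrains the growth kinase mTORC1 and that ATF4 and p53 induce in mammals. Its model lies on chromosome 11q, 857485276 to 857614225, on the minus strand. SESN2 had 29.5 and 29.8 CPM in gentamicin libraries, against 60.1, 73.2 and 84.0 CPM in controls. Every control was above both treated kidneys by a wide gap. The mean was 29.7 CPM after gentamicin and 72.4 CPM in controls (n = 2 and 3), where the coefficient of variation was 16.6%. Log2 fold change was -1.29 ± 0.16 (SE; 95% interval -1.65 to -0.92; edgeR adjusted p = 0.000648). The call held in each of 17 alternatives, total-count scaling included, with log2 fold changes from -1.42 to -0.97.

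ASNS, asparagine synthetase, makes asparagine and is a much used readout of ATF4 activity. It lies on chromosome 2p, 1090021382 to 1090326485. ASNS had 15.9 and 17.8 CPM in gentamicin libraries, against 23.9, 29.1 and 27.5 CPM in controls. All treated values lay under all control values. ASNS differed by -0.67 ± 0.15 on the log2 scale (SE; edgeR adjusted p = 0.0111). The call was lost without gentamicin 1 (adjusted p = 0.112) or gentamicin 3 (0.0608), and with total-count scaling, where the log2 fold change was -0.35 (0.123).

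DDIT4, or REDD1, is another inhibitor of mTORC1 that stress and low oxygen induce. It lies on chromosome 8p, 670594972 to 670598677. DDIT4 had 24.6 and 18.6 CPM in gentamicin libraries, against 40.8, 33.0 and 26.2 CPM in controls. The groups did not overlap, but control 3 was close to gentamicin 1. DDIT4 differed by -0.63 ± 0.21 on the log2 scale (SE; 95% interval -1.12 to -0.13; edgeR adjusted p = 0.0661). It passed without control 3 (adjusted p = 0.0201), without a filter (0.00142) and when blocked on replicate number (0.0405). With total-count scaling the log2 value was -0.31 (0.256), and without gentamicin 3 it was -0.44 (0.371).

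HSPA5, or BiP, holds unfolded proteins in the ER and keeps the stress sensors inactive. It lies on chromosome 8p, 91191546 to 91203731. HSPA5 had 518 and 498 CPM in gentamicin libraries, against 426, 430 and 603 CPM in controls. The treated kidneys lay between the controls, of which control 3 was the highest of all libraries. The log2 fold change was 0.06 ± 0.17 (SE; edgeR adjusted p = 0.828). Its 95% interval of -0.33 to 0.45 holds on the TMM scale and does not cover the choice of scaling. Without control 1 or control 2 the sign turned (-0.03 in each case), without control 3 the value was 0.23 (adjusted p = 0.241) and with total-count scaling 0.38 (0.126).

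HERPUD1 encodes a ubiquitin-like ER membrane protein that helps to degrade misfolded proteins. It lies on chromosome 1q, 429362439 to 429397484. HERPUD1 had 63.5 and 58.5 CPM in gentamicin libraries, against 74.2, 92.3 and 85.3 CPM in controls. Treated kidneys were under every control. HERPUD1 differed by -0.46 ± 0.13 on the log2 scale (SE; 95% interval -0.76 to -0.16; edgeR adjusted p = 0.0321). The call was lost without control 2 (adjusted p = 0.0663) and when blocked on replicate number (0.113), which also takes control 2 out of the comparison. It was lost without control 3 (0.0578), gentamicin 1 or gentamicin 3 too, and with total-count scaling, where the log2 fold change was -0.14 (0.438).

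Counting only whether the groups overlap, ATF4, DDIT3, TRIB3 and CHAC1 had both treated kidneys above all controls, 4 of 9 members, and SESN2, ASNS, DDIT4 and HERPUD1 had both below, again 4 of 9. Among all genes tested 28.6% were non-overlapping and higher and 26.7% non-overlapping and lower. HSPA5 was the member with overlapping groups.

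**Figure D2:**
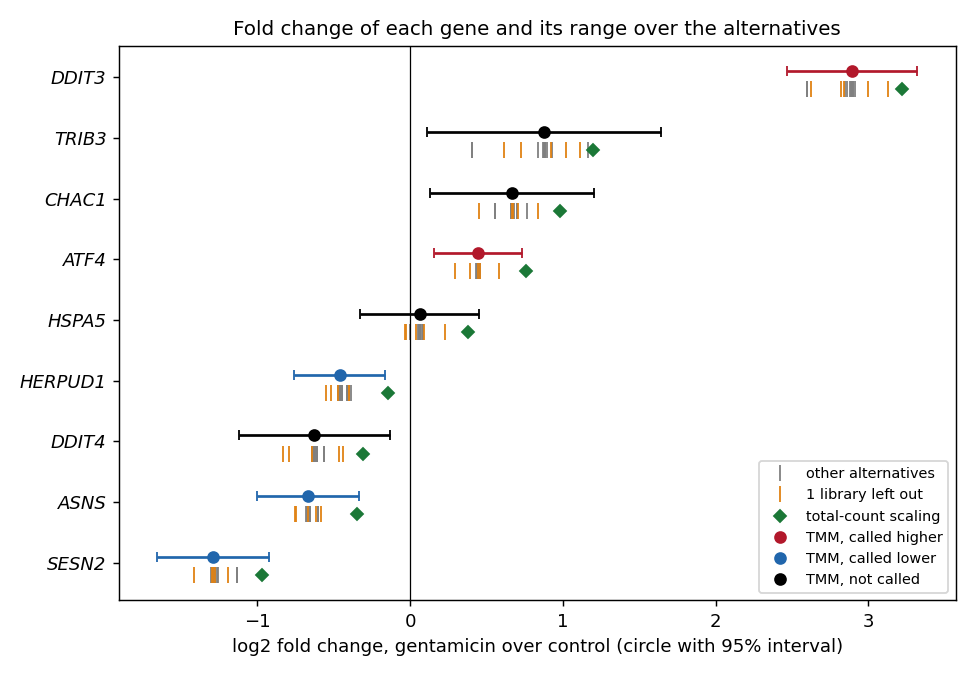
Log2 fold change of gentamicin over control for the 9 tested genes, with 95% intervals from edgeR's fit on TMM-scaled counts (circles). Ticks show the same value with 1 library left out or another tool, filter or scaling, and diamonds show total-count scaling, which shifts all genes to the right. DDIT3, at 2.90, and SESN2, at -1.29, stay on their side of 0 by a wide margin.

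Compared per gene length, on the authors' deposited FPKM (fragments per gene length and library size), the members fell into tiers. In controls HSPA5 averaged 146 ± 29.5 FPKM and ATF4 117 ± 5.38 FPKM (SD, n = 3). The difference of the means was within the spread of HSPA5, but HSPA5 was above ATF4 in each control, by 1.06-, 1.09- and 1.62-fold. DDIT4, HERPUD1, ASNS and SESN2 followed at 15.8, 13.2, 13.0 and 13.0 FPKM, and these 4 did not differ beyond their spread. DDIT3, at 3.77 ± 0.512 FPKM, and CHAC1, at 2.93 ± 0.818 FPKM, overlapped in controls, and TRIB3 was lowest at 0.585 FPKM.

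After gentamicin ATF4 averaged 160 FPKM and HSPA5 153 FPKM, but their order differed between libraries. The ratio of HSPA5 to ATF4 was 0.889 in gentamicin 1 and 1.05 in gentamicin 3. DDIT3 stood next at 28.2 FPKM, above the 4 genes that it lay under in controls. By mean level DDIT3 ranked 1448 among all gene models after gentamicin and 8193 in controls. Within a library, the ratio of DDIT3 to ATF4 FPKM was 0.133 and 0.230 in gentamicin kidneys, against 0.0282, 0.0297 and 0.0393 in controls. The ratio of SESN2 to ATF4 went the other way, at 0.0302 and 0.0374 in gentamicin kidneys and 0.0895, 0.111 and 0.135 in controls.

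**Figure D3:**
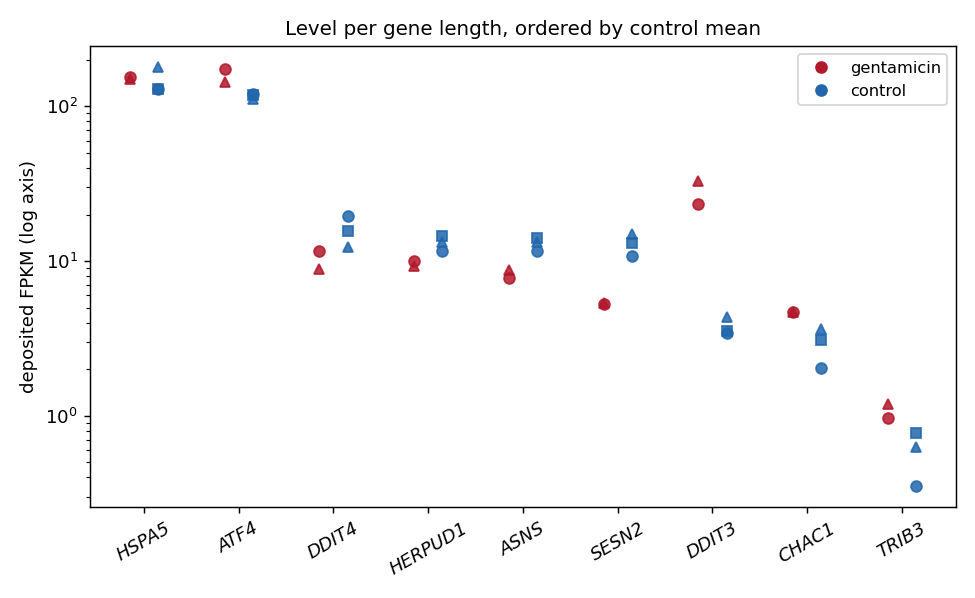
Deposited FPKM of each gene in each library on a log axis, with genes ordered by their control mean and the gentamicin libraries left of the controls. DDIT3 leaves the low tier, with 23.3 and 33.1 FPKM after gentamicin against 3.42 to 4.36 FPKM in controls.

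Among sensors and eIF2 machinery upstream of ATF4, 3 of 22 tested models were higher, a share near the 13.3% of all genes, and 0 were lower, with a median log2 fold change of 0.12; 3 were lower at an unadjusted p under 0.05, DESeq2 called 2 lower and limma-voom 0. EIF2AK2, or PKR, the kinase that senses double-stranded RNA and is induced by interferon, rose 2.25-fold to 37.9 ± 5.23 CPM, against 16.8 ± 2.59 CPM in controls (edgeR adjusted p = 0.00141). EIF2AK4, or GCN2, which senses uncharged tRNA, rose 1.45-fold. PPP1R15B, the constitutive subunit that directs a phosphatase to eIF2, rose 1.63-fold, with 68.7 and 69.3 CPM in gentamicin libraries against 40.8, 35.8 and 50.1 CPM in controls.

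The calls for EIF2AK4 and PPP1R15B were lost without gentamicin 1 (adjusted p = 0.172 and 0.0709) or gentamicin 3 (0.0824 and 0.0796), and that for EIF2AK4 also without control 3 (0.0626). EIF2AK3, or PERK, the ER-resident kinase, had 36.1 and 33.9 CPM in gentamicin libraries and 28.3 to 31.9 CPM in controls (edgeR adjusted p = 0.246). The ER sensors ERN1, or IRE1, and ATF6 did not pass either (0.282 and 0.464), nor did EIF2S1, the phosphorylated subunit (0.107). XBP1, which IRE1 activates by splicing, averaged 200 ± 8.65 CPM after gentamicin and 289 ± 58.2 CPM in controls (edgeR adjusted p = 0.0596). XBP1 passed as lower without control 2 (0.007) and when blocked on replicate number (0.0146), which also takes control 2 out of the comparison. It passed in DESeq2 (0.0276) and without a filter (0.0015) as well. With total-count scaling 9 sensor models were higher, EIF2AK3 (0.0106) and ERN1 (0.0466) among them. That scaling moved all genes up, and 6192 of all 22006 genes were called higher, against 2931 with TMM.

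Among bZIP factors that pair with or resemble ATF4 and CHOP, 4 of 17 tested models were higher and 1 lower (all genes, 13.3% and 13.4%). ATF3, a repressor that ATF4 induces, had 23.6 and 25.2 CPM in gentamicin libraries, against 1.06, 0.945 and 1.81 CPM in controls (log2 fold change 4.25 ± 0.27, SE; edgeR adjusted p = 1.68e-05). JUN, a partner of ATF3 in AP-1, rose 4.52-fold in its abundant model AMEX60DD019448. CEBPA rose 1.87-fold, a call lost without gentamicin 1 (adjusted p = 0.172) or gentamicin 3 (0.0882). CREB3L3, an ER-anchored factor of metabolic tissues, fell 16.1-fold in the model AMEX60DD014293, with 1.25 and 1.61 CPM in gentamicin libraries against 26.0, 28.2 and 15.5 CPM in controls. The fourth higher model, AMEX60DD041385, carries the names CREB3 and CREB3L3 and rose 1.28-fold (edgeR adjusted p = 0.0474). The ATF4 relative ATF5 averaged 307 CPM after gentamicin and 320 CPM in controls (0.792), and CEBPB, which partners CHOP and ATF4, did not pass (0.486) except with total-count scaling (0.0294). With gentamicin 1 left out, fewer models of this list were higher, as was so over all genes.

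Amino acid genes, secreted factors and other genes linked to ATF4 in mammals were divided. Of 31 tested models 6 were higher and 8 lower (all genes, 13.3% and 13.4%), with a median log2 fold change of -0.15. The other genes include CDKN1A, EIF4EBP1, VLDLR and VEGFA. EIF4EBP1, a VLDLR model and both VEGFA models, of which 1 is also named VEGFB, were among the lower. GDF15, a circulating stress hormone, had 8.51 and 8.17 CPM in gentamicin libraries against 0.570, 1.02 and 1.66 CPM in controls (edgeR adjusted p = 0.000866). The cell cycle inhibitor CDKN1A rose 5.60-fold. SHMT2, the mitochondrial serine hydroxymethyltransferase, fell 2.03-fold to 68.0 ± 0.562 CPM, against 138 ± 16.6 CPM in controls (edgeR adjusted p = 0.00084), and PSAT1, which makes phosphoserine, had 45.6 and 55.1 CPM in gentamicin libraries and 40.5 to 52.7 CPM in controls (0.752).

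The cystine transporter SLC7A11 did not pass either in its tested model, AMEX60DD007093 (edgeR adjusted p = 0.17). The model named SLC7A11 alone, AMEX60DD044707, had 3 and 1 reads in gentamicin libraries and 0 in each control. Neither it nor a further model, AMEX60DD044708, had enough reads to be tested. An alanine transaminase model named GPT2, AMEX60DD040714, whose other name in the table is GPT, fell 34.2-fold to 20.4 ± 4.45 CPM, against 698 ± 197 CPM in controls (edgeR adjusted p = 5.12e-05). The other GPT2 model, AMEX60DD016622, rose, with 25.5 and 26.1 CPM in gentamicin libraries against 10.6, 9.38 and 16.5 CPM in controls (0.012). With either gentamicin library left out the list had fewer calls in both directions, as had all genes. With total-count scaling 9 models of the list were higher and 5 lower (all 22006 genes, 6192 and 1895). In the same libraries proximal tubule markers fell and macrophage markers rose, and their part in either direction was not tested.

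Cytosolic tRNA synthetases, which ATF4 also controls in mammals, had 4 of 12 tested models higher and 1 lower (all genes, 13.3% and 13.4%). IARS1, for isoleucine, rose 2.23-fold, with 84.4 and 89.9 CPM in gentamicin libraries against 45.3, 32.6 and 39.6 CPM in controls (edgeR adjusted p = 0.000817). MARS1, for methionine, NARS1, for asparagine, and LARS1, for leucine, rose 1.67-, 1.55- and 1.39-fold. NARS1 and LARS1 were not called without gentamicin 1 (adjusted p = 0.0601 and 0.0517) or gentamicin 3 (0.0976 and 0.243), nor LARS1 without control 2 (0.0792) or control 3 (0.0798). The lower model was GARS1, for glycine, at -0.35 on the log2 scale, named because it was the only one, after its value was seen. With any 1 library left out 0 models were lower.

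Genes of cell death and ER oxidation were listed, some of which CHOP controls in mammals. In edgeR's test 3 of 5 tested models were higher and 0 lower (all genes, 13.3% and 13.4%). The list is only partly covered: BBC3, PMAIP1, TNFRSF10A and CASP4 matched no model, and BCL2 and ERO1B had too few reads to be tested. At an unadjusted p under 0.05, and in DESeq2 and limma-voom, 0 were lower. BAK1 and the ER oxidation gene ERO1A did not pass (edgeR adjusted p = 0.447 and 0.178). BCL2L11, or BIM, a death-promoting protein of the BCL2 family, rose 2.78-fold, with 28.7 and 26.6 CPM in gentamicin libraries against 9.03, 12.5 and 8.24 CPM in controls (edgeR adjusted p = 0.000924). TNFRSF10B, a death receptor, rose 1.65-fold and BAX, a pore-forming BCL2 relative, 1.39-fold. Without gentamicin 1 or gentamicin 3, where all genes had fewer calls too, TNFRSF10B and BAX were not called. BAX was not called without control 2 (adjusted p = 0.105) or control 3 (0.0793) either. Macrophage markers rose and proximal tubule markers fell in the same libraries, and their part in the changes of this list was not tested.

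ER chaperones and folding enzymes had 1 of 26 tested models higher and 5 lower (all genes, 13.3% and 13.4%). Their median log2 fold change was -0.09. The higher one was HSPA13, a microsomal relative of HSPA5, with 37.4 and 37.8 CPM in gentamicin libraries against 20.8, 15.3 and 20.3 CPM in controls (edgeR adjusted p = 0.00237). TXNDC5, a protein disulfide isomerase, fell 1.93-fold to 172 ± 2.05 CPM, against 331 ± 60.0 CPM in controls. ERP29, a folding factor for secreted proteins, fell 1.78-fold, and DNAJB9, a cochaperone of HSPA5 whose model AMEX60DD006334 overlaps another on the opposite strand, 1.57-fold. DNAJB9 was not called without gentamicin 1 (adjusted p = 0.0672) or with total-count scaling (0.0872). Both tested HSP90B1 models stayed under 5 CPM in every library and did not pass (0.435 and 0.695), and another had no reads. Whether these models hold the whole gene, or a model without this name carries it, was not tested. Fewer models were lower with either gentamicin library left out, as was so over all genes. With total-count scaling 7 models were higher and 2 lower (all 22006 genes, 6192 and 1895).

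In ER-associated degradation, the pathway of HERPUD1, 3 of 26 tested models were higher and 2 lower (all genes, 13.3% and 13.4%). VCP, the ATPase that pulls proteins out of the membrane, fell 3.70-fold in the model AMEX60DD031718, with 15.5 and 15.7 CPM in gentamicin libraries against 61.0, 57.7 and 54.0 CPM in controls (edgeR adjusted p = 2.32e-05). SELENOS, a selenoprotein of the same complex, fell 1.48-fold, a call lost without gentamicin 1 (adjusted p = 0.0567) or gentamicin 3 (0.087) and with total-count scaling (0.123). SEL1L, the scaffold of the ubiquitin ligase, did not pass (0.371). Among the higher models were MAN1B1, a mannosidase that trims misfolded glycoproteins (0.0387), and UGGT1, a folding sensor for glycoproteins (0.0403). The number higher was 0 when control 3 was left out and 1 when control 2 was (all genes, 2634 and 2416). It also fell with either gentamicin library left out, as was so over all genes. With total-count scaling 9 were higher and 1 lower (all 22006 genes, 6192 and 1895).

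Paralogs of the members form a list that also holds PPP1R15B, HSPA13 and, under the name TRIB2, the TRIB3 model. This list had 2 of 12 tested models higher and 2 lower (all genes, 13.3% and 13.4%). The sestrins fell with SESN2: SESN1, which p53 induces in mammals, had 40.6 and 44.5 CPM in gentamicin libraries against 65.9, 93.4 and 58.6 CPM in controls (edgeR adjusted p = 0.0276). SESN3 fell 1.60-fold in its abundant model AMEX60DD049544 and did not pass in 2 weaker ones. SESN1 and SESN3 were not called without gentamicin 1 (adjusted p = 0.194 and 0.0904) or with total-count scaling (0.122 and 0.0859), nor SESN1 without gentamicin 3 (0.139). The separate TRIB2 model, AMEX60DD033199, did not pass (0.8). TRIB1, a relative of TRIB3, averaged 21.8 CPM after gentamicin and 24.2 CPM in controls (0.515). DDIT4L, the paralog of DDIT4, had 4 to 7 reads in each library and was not tested.

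**Figure D4:**
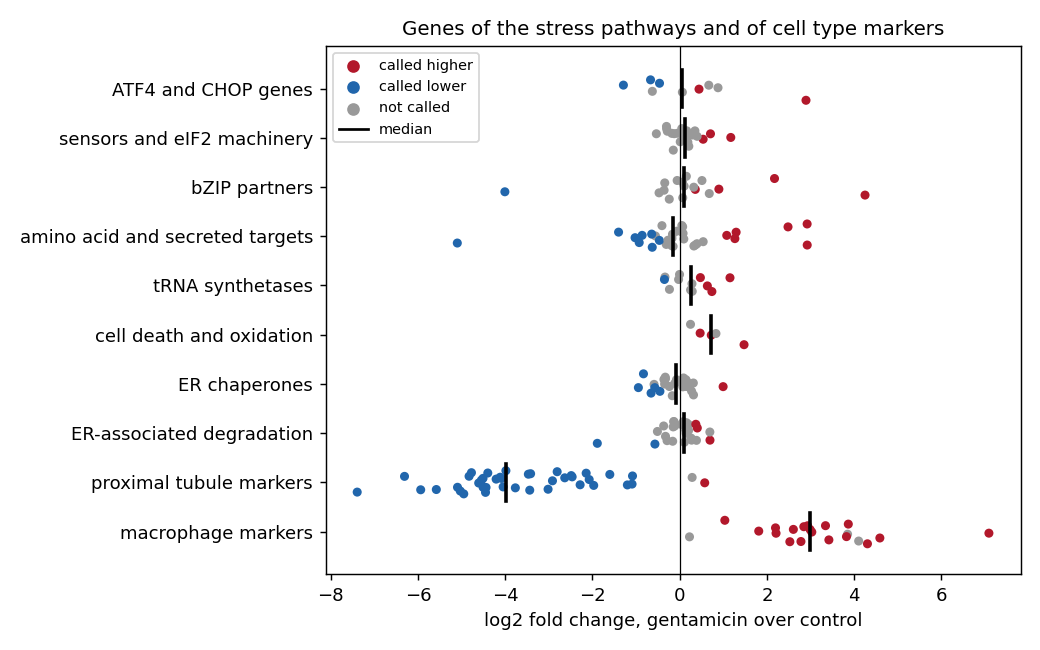
Log2 fold change of gentamicin over control for every tested model of the stress gene lists, paralogs not drawn, and of 2 marker lists, with medians as vertical lines. The medians of the stress lists lie between -0.15 and 0.73, beside -3.98 for proximal tubule markers and 2.99 for macrophage markers.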

How the data were processed

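Kidney RNA of 5 axolotls was sequenced. Tools listed in the submitters' processing notes are HISAT2 2.0.5, featureCounts 1.5.0-p3, DESeq2 1.20.0, CASAVA 2.19 and fastp, with no role stated. The build and the strand setting were not given in the sources used here, and positions were taken from the deposited tables as they stand. Among the named models, those of VCP, TNFRSF10B, BAX, CEBPA, GARS1 and SLC7A11 carry these names from a single match, beside a locus identifier. Others, among them EIF2AK2, GDF15, JUN, ATF5, CEBPB, MAN1B1, TRIB1 and NARS1, also carry the name from a single match, with no second name.

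The authors deposited raw read counts and FPKM per gene, with the names of the tables exchanged: the table named for FPKM holds whole-number counts. FPKM as deposited carry 1 scaling factor per library and served for levels between genes. Counts were fitted with edgeR 4.0.16 in R 4.3.3 (filterByExpr with minimum count 10 and total 15, TMM, robust quasi-likelihood F-test, two-sided), with Benjamini-Hochberg adjustment over all 22006 genes tested. The standard error is the log2 fold change divided by the root of F. Within groups no pair of libraries was identical (chi-square per degree of freedom 12.9 to 18.5).

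Alternatives were DESeq2 1.42.0, limma 3.58.1 (voom, and log2(FPKM + 1) or log2(FPKM + 0.1), mean FPKM of at least 0.5 or none), other scalings and filters, a replicate block, and each library left out. Tested on simulated data of this design, with far fewer changed genes than the real data have calls, the fit gave a larger share of false calls than the nominal rate. The members, lists and the rule for naming genes (all members, up to 4 called models per stress list by p, and fixed pathway genes) were chosen with earlier results of these data known. GARS1, TRIB2, FGF21, SLC7A5, SLC3A2, SLC12A3, ERO1A, BAK1, EIF4EBP1, VLDLR, VEGFA and the other GPT2 model were named after their values were seen. No sequences are shown, since no sequence tables were used here.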

Additional observations from a re-analysis of the deposited data

How the results depend on the processing

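Over 17 alternatives the 9 member models gave 153 values: 125 kept their side of the threshold, 19 lost a call, 9 gained one and 0 called values reversed. HSPA5, never called, kept its sign in 15 of 17. DDIT3 and SESN2 kept their calls in all 17. Members higher numbered 2 and were 4 with total-count scaling, 4 without a filter on low counts, 1 in limma on log2(FPKM + 1) with or without its filter, and 1 with the replicate block, under which ATF4 (adjusted p = 0.0649) and HERPUD1 (0.113) were not called and DDIT4 was (0.0405). Members lower numbered 3 and were 1 with total-count scaling and 4 without a filter on low counts. With 1 library left out, 1 to 2 members were higher and 1 to 3 lower. Over all genes 2931 were higher and 2959 lower. The counts were 6192 and 1895 with total-count scaling, and 1796 and 1828 in unfiltered limma on log2(FPKM + 1). Without a filter on low counts they were 3614 and 3568, so calls rose over all genes as well as among the members. In that run all 39937 gene models with a read were tested. With the replicate block they were 2118 and 2367, and with 1 library left out 1333 to 2770 and 1627 to 2963. A lone gentamicin library is assumed to vary like the controls. Total-count scaling is set by its own construction, since it omits the TMM factors; the cause of the other changes was not tested. The shared numbers 1 and 3 name libraries and are not said to pair animals (correlation of the differences between libraries 1 and 3 across groups, 0.01 over 22006 genes). For the other 41 named models 624 of 692 values kept their side of the threshold, 61 lost a call, 7 gained one and 0 called values reversed. With 2 treated animals, small changes such as that of HSPA5 are limited by the spread between animals.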

Other observations

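DDIT3 and MARS1, both higher after gentamicin, are neighbours on chromosome 3q, on opposite strands and 69528 bases apart without overlap. MARS1 had 55.9 and 57.2 CPM in gentamicin libraries, against 33.5, 30.9 and 37.3 CPM in controls. HERPUD1 lies 306973 bases from SLC12A3, the thiazide-sensitive salt transporter, on the same strand. An expressed model named SIGLEC11 lies nearer, at 207279 bases on the opposite strand, and its change is not given here. SLC12A3 had 560 and 706 CPM in gentamicin libraries, against 1117, 1293 and 1001 CPM in controls (edgeR adjusted p = 0.00625). Both HERPUD1 and SLC12A3 were called lower after gentamicin, as were 13.4% of all genes tested. Whether reads were counted by strand is not stated.

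FGF21, a secreted hormone that ATF4 induces in mammals, was called higher at a low level, with 1.90 and 1.25 CPM in gentamicin libraries against 0.163, 0.0727 and 0.361 CPM in controls. The transporter SLC7A5, which carries leucine, was higher in both of its tested models, at log2 fold changes of 1.27 and 1.30, while its partner chain SLC3A2 was lower, at -0.46. These genes were chosen after their values were seen.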
